A study of Mus musculus with 58 samples.

Results

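The glucocorticoid receptors and a set of their target genes were followed in the prefrontal cortex of young mice given fluoxetine or lithium. The set held 10 of the 18088 genes measured, chosen by symbol: the receptor genes Nr3c1 and Nr3c2, and the target genes Fkbp5, Sult1a1, Hif3a, Mertk, Tsc22d3, Ddit4, Sgk1 and Zbtb16. RNA sequencing covered 58 C57BL/6J mice aged 25 days. By their labels they were wild type (WT) or heterozygous (HT) for Tanc2, which encodes a scaffold protein of the postsynaptic density, and came from 6 arms of genotype and drug. Pups took up vehicle, fluoxetine or lithium with the milk of their dams from day 3 to day 24, and no dose is given in the sources used. Split further by sex, the arms gave 12 groups of 5 mice, or of 4 for vehicle males in WT and lithium males in HT, and in all 19 vehicle, 20 fluoxetine and 19 lithium mice. The labels name no litter, although a drug given to a dam reaches her whole litter, so that p-values measure the spread between these mice only.

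Corticosterone, the main glucocorticoid of the mouse, enters cells and binds 2 related receptors. The mineralocorticoid receptor, product of Nr3c2, has the higher affinity and is occupied at resting hormone levels, whereas the glucocorticoid receptor, product of Nr3c1, fills during stress and at the daily peak of the hormone. Bound receptors leave their chaperone complex, move to the nucleus and act on genes through short palindromic DNA elements. Fkbp5 is among the best known of these targets, and its product lowers the hormone affinity of the receptor that induced it.

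Library depth was 23270000 to 37800000 recovered reads with a median of 27910000, and values are given as normalized reads, that is reads scaled by each library's size factor. Tanc2 itself stood at 7541 ± 387 normalized reads in WT vehicle mice (SD, n = 9) and at 8093 ± 381 in HT vehicle mice (SD, n = 10), so the HT label was not matched by a lower Tanc2 level and the genotype is given as labelled. Reads assigned to Gm10221 were present in 27 libraries and at 0 in the other 31: all 19 lithium libraries, all 5 of HT fluoxetine females and 3 of the 5 of WT fluoxetine females held them. The mitochondrial transcript mt-Atp6 averaged 52088 normalized reads in libraries with Gm10221 and 23274 in those without. Lithium and this difference between libraries cannot be told apart, and fluoxetine results are given with a term for these reads, or without the libraries that hold them, where either changed a call. Without those libraries only males remain of the HT fluoxetine mice. The HT values from that fit therefore rest on treated males, and cannot tell these reads from sex. Summed markers of neurons (6 genes, among them Snap25 and Slc17a7) ran from 161361 to 194932 normalized reads under vehicle, from 153295 to 203453 under fluoxetine and from 166469 to 203754 under lithium. Markers of the olfactory bulb (4 genes), a neighbouring region, varied far more, from 74.3 to 11841 over all mice. Their median sum was 2196 under vehicle, 899 under fluoxetine and 2481 under lithium. In such bulk tissue a change in the share of a cell type and a change of RNA per cell cannot be told apart.

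All 10 genes passed the filter on low values. Per kilobase of exon, the mean level in vehicle mice was highest for Ddit4 at 729 normalized reads, followed by Nr3c1 and Tsc22d3 (both 378), Sgk1 (364) and Mertk (293). Zbtb16 (183), Sult1a1 (174), Nr3c2 (135), Fkbp5 (99.1) and Hif3a (42.8) lay lower on this scale of levels. Neighbours in that order such as Nr3c1, Tsc22d3 and Sgk1 differed by less than the spread between mice. The plot of normalized reads by arm gives the value of each gene in each mouse.

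**Figure D1:**
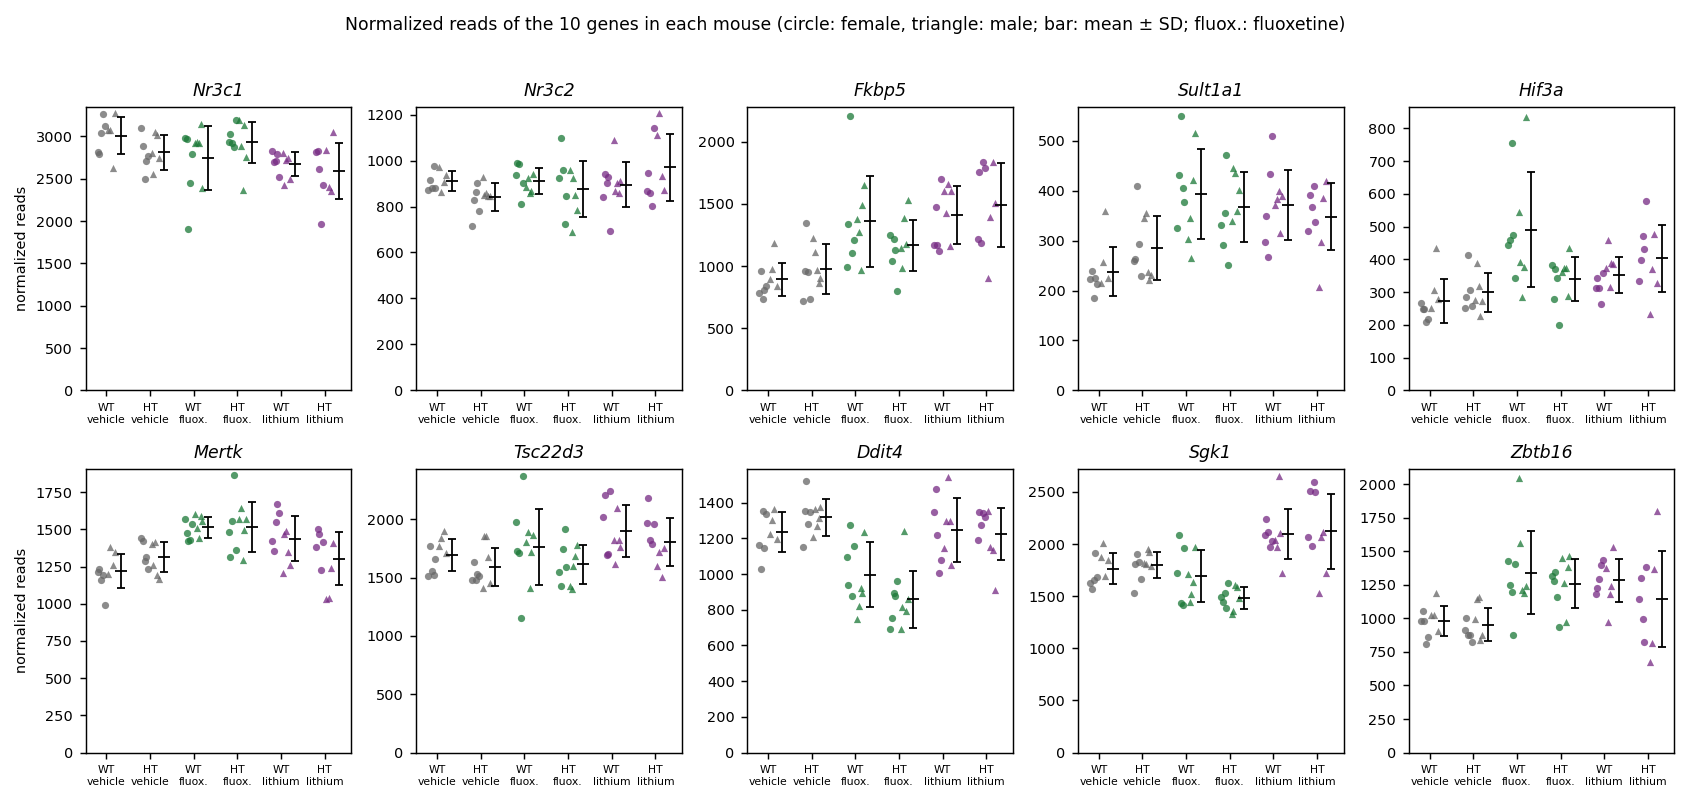
Normalized reads (y axis, from 0) of the 10 genes in each of the 58 mice, by genotype and drug (x axis); circles are females, triangles males, and the bars give the mean ± SD of an arm. Ddit4 lay lowest in the fluoxetine arms (857 and 997 on average) and Fkbp5 highest in the lithium arms (1409 and 1492).

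Over both genotypes, 7 of the 10 genes passed the test under fluoxetine and 7 under lithium, 5 of them under both drugs. Fkbp5, Sult1a1, Hif3a and Zbtb16 rose under either drug. Mertk rose and Ddit4 fell under fluoxetine, whereas Tsc22d3 rose and Nr3c1 fell under lithium. Sgk1 fell under fluoxetine and rose under lithium. Of all 17925 genes tested, 6.15% passed under fluoxetine and 24.3% under lithium (limma with trend on log2(value + 1), Benjamini-Hochberg adjustment over all genes, threshold 0.05). The median log2 difference of the 10 genes was 0.14 under fluoxetine and 0.19 under lithium, beside 0.0015 and -0.0022 over all genes. Both drugs were compared with the same vehicle mice, so the shared rises are not independent of each other. The 10 genes were chosen with earlier results of these data known. Their share that passed, here or within single arms, is therefore no independent test against all genes.

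**Figure D2:**
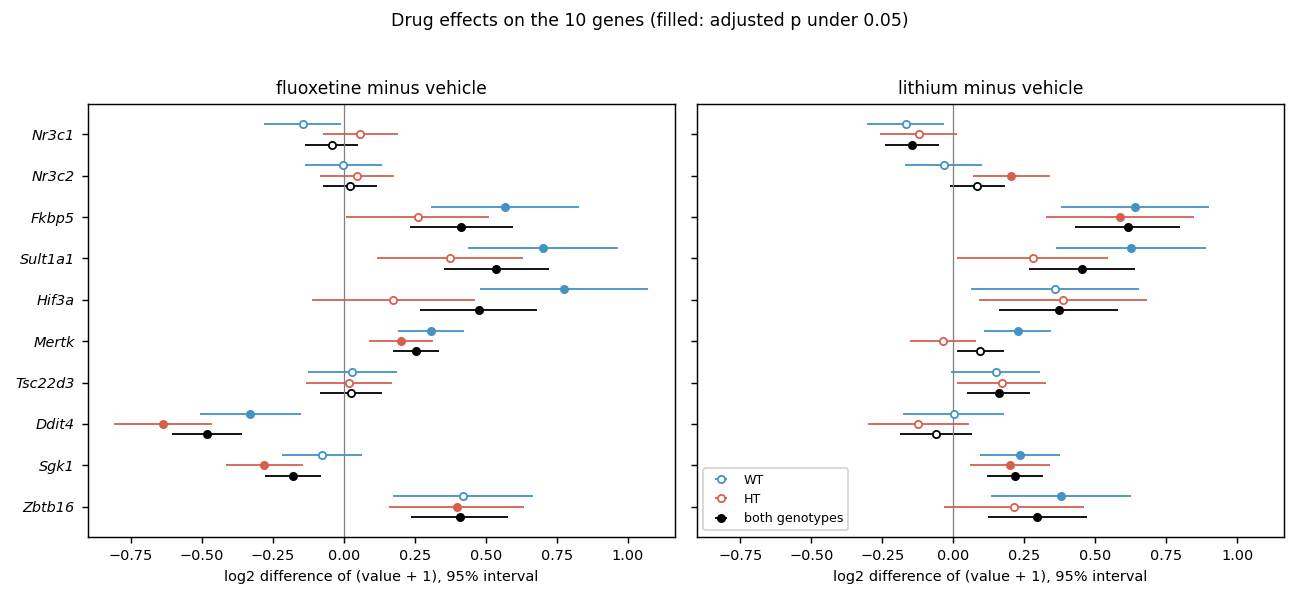
Log2 difference from vehicle (x axis) of the 10 genes (y axis) under fluoxetine (left) and lithium (right), in WT mice, in HT mice and over both genotypes, with 95% intervals; filled points passed at an adjusted p under 0.05. Sgk1 lay below 0 under fluoxetine (-0.18 over both genotypes) and above 0 under lithium (0.22).

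Of the 2 receptors, Nr3c1 fell under lithium, and Nr3c2 passed the test only in HT lithium mice. Nr3c1 (ENSMUSG00000024431, chromosome 18, minus strand) ran from 2494 to 3282 normalized reads under vehicle with a median of 2885, from 1901 to 3199 with a median of 2926 under fluoxetine, and from 1965 to 3057 with a median of 2713 under lithium. The lithium range reached lower than that of vehicle but overlapped it widely, with 15 of 19 lithium mice below the vehicle mean of their sex and genotype. Over both genotypes Nr3c1 fell by 9.57% under lithium (log2 difference -0.15 ± 0.05 SE, adjusted p = 0.0202). The log2 difference under fluoxetine was -0.04 ± 0.05 (adjusted p = 0.708). All 10 WT lithium mice lay below the vehicle mean of their sex, against 5 of 9 HT lithium mice, with log2 differences of -0.17 and -0.12 that did not pass within either genotype (adjusted p = 0.125 and 0.225). That difference between genotypes was 0.05 ± 0.10 on the log2 scale and did not pass either (adjusted p = 0.988). With the olfactory bulb markers as a covariate the lithium difference of Nr3c1 over both genotypes was -0.13 ± 0.04 (adjusted p = 0.0106).

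Nr3c2 (ENSMUSG00000031618, GRCm38 chromosome 8:76899442-77245012, plus strand) ran from 714 to 975.1 normalized reads under vehicle, with a median of 872. Under fluoxetine it ran from 689 to 1097 with a median of 912, and under lithium from 694 to 1208 with a median of 904. All 3 ranges overlapped, and neither drug moved it over both genotypes (log2 differences 0.02 ± 0.05 and 0.08 ± 0.05, adjusted p = 0.875 and 0.197). Within HT mice it passed under lithium, at 971 ± 146 normalized reads (SD, n = 9) against 842 ± 60.2 under vehicle (SD, n = 10), a log2 difference of 0.20 ± 0.07 (adjusted p = 0.0305). The call was lost when any of 5 single libraries was left out, namely HT lithium female 5 (adjusted p = 0.0803), male 1 (0.0673) or male 2 (0.108), or HT vehicle female 1 (0.0668) or female 5 (0.0524). In WT mice the log2 difference was -0.03 ± 0.07, and the lithium effect did not differ between genotypes beyond the threshold (0.24 ± 0.10, adjusted p = 0.647).

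The palindrome that the receptors bind is commonly written as the hexamer AGAACA, any 3 bases and the facing hexamer TGTTCT. Promoter windows of 250 bases before to 50 after a transcription start, from RefSeq on GRCm38.p6, were matched for 8 of the 10 genes in 15 windows. Searched on both strands, the palindrome matched 1 of these windows, at an internal start of Sgk1, and 3 of all 32851 mouse windows (0.00913%). The single hexamer AGAACA, which the palindrome contains, matched 5 windows of 3 of the genes (Sgk1, Sult1a1 and Tsc22d3) and 19.0% of all windows. The cyclic AMP element TGACGTCA matched 0 of the 15 windows and 1.79% of all. Printed here are the bases before the start of Sgk1, which holds the palindrome, of Sult1a1, which holds the single hexamer at 212 and 34 bases before the start, and of Fkbp5, which holds neither in this window. Each runs 5′ to 3′ on the gene's strand: Sgk1 at chr10:21993640-21993889 (plus), Sult1a1 at chr7:126676433-126676668 (minus) and Fkbp5 at chr17:28486150-28486399 (minus). The Sult1a1 letters stop 14 bases short of the RefSeq start, where an annotated exon begins. Capitals mark the hexamer on either strand. In Sgk1 the palindrome begins 189 bases before the start with hexamers at 189 and 180, and a further single hexamer lies at 242.
Sgk1: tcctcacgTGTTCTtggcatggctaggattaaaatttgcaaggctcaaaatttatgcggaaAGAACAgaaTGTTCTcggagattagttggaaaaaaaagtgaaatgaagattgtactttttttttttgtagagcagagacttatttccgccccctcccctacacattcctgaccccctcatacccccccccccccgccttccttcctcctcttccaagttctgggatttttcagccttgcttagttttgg
Sult1a1: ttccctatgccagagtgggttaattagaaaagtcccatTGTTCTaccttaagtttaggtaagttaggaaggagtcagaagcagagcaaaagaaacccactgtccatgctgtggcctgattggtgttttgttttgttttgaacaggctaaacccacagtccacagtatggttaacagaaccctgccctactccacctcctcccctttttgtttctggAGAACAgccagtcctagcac
Fkbp5: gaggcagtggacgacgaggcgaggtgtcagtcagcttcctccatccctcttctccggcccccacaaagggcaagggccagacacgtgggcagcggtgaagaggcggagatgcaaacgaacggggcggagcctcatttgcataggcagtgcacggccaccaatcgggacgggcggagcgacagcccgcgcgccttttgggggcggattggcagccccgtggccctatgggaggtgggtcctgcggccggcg
A match is a description of letters, and the window takes in none of the more distant elements through which receptors also act.

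Fkbp5 (ENSMUSG00000024222, GRCm38 chromosome 17:28399094-28517527, minus strand) encodes a co-chaperone of the receptor complex. It ran from 720 to 1349 normalized reads under vehicle with a median of 902, from 800 to 2208 with a median of 1215 under fluoxetine, and from 906 to 1840 with a median of 1476 under lithium. The ranges overlapped, yet 12 of 19 lithium mice and 6 of 20 fluoxetine mice lay above the highest vehicle mouse. Under lithium Fkbp5 rose by 53.0% over both genotypes (0.61 ± 0.09, adjusted p = 1.32e-06), and 18 of 19 mice were above the vehicle mean of their sex and genotype. Under fluoxetine it rose by 33.2% (0.41 ± 0.09, adjusted p = 0.00195), in 17 of 20 mice. With a term for Gm10221 reads the fluoxetine difference was 0.37 and its adjusted p 0.0523, and over the 31 libraries without those reads it was 0.36 with an adjusted p of 0.0322. The WT fluoxetine difference (0.57 ± 0.13, adjusted p = 0.0102) was 0.46 without those libraries and lost its call (adjusted p = 0.0651). In HT mice the lithium mean was 1492 ± 340 (SD, n = 9) and the fluoxetine mean 1168 ± 205 (SD, n = 10), against 980 ± 200 under vehicle (SD, n = 10). The fluoxetine difference in HT mice was 0.26 ± 0.13 and did not pass (adjusted p = 0.276).

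Sult1a1 (ENSMUSG00000030711, GRCm38 chromosome 7:126672865-126676432, minus strand) encodes a sulfotransferase of phenols and catecholamines. Its range was 185 to 410 normalized reads under vehicle (median 237), 252 to 550 under fluoxetine (median 368) and 208 to 509 under lithium (median 371). Most treated mice sat in the upper part of the vehicle range or above it. Sult1a1 rose by 45.1% under fluoxetine over both genotypes (0.54 ± 0.09, adjusted p = 5.53e-05; higher in 18 of 20 mice) and by 36.9% under lithium (0.45 ± 0.09, adjusted p = 0.00023; 18 of 19 mice). WT vehicle mice averaged 238 ± 49.6 (SD, n = 9) and HT vehicle mice 285 ± 64.8 (SD, n = 10), a log2 difference of 0.24 ± 0.13 that did not pass (adjusted p = 0.947). In HT mice the differences were 0.37 ± 0.13 under fluoxetine and 0.28 ± 0.13 under lithium, and neither passed (adjusted p = 0.0939 and 0.145).

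Hif3a (ENSMUSG00000004328, GRCm38 chromosome 7:17031507-17062427, minus strand) encodes a subunit of the hypoxia-inducible factor family, some forms of which hold back the other members. It ran from 210 to 435 normalized reads under vehicle (median 273), from 198 to 834 under fluoxetine (median 375) and from 233 to 578 under lithium (median 370). Fluoxetine values were the most spread, with an SD of 176 among the 10 WT fluoxetine mice beside 67.2 among the 9 WT vehicle mice. It rose by 39.0% under fluoxetine (0.48 ± 0.10, adjusted p = 0.00169; 16 of 20 mice) and by 29.3% under lithium (0.37 ± 0.10, adjusted p = 0.00634; 17 of 19 mice). The lithium rise did not pass within WT mice (0.35 in edgeR, adjusted p = 0.163) or HT mice (0.39 in edgeR, adjusted p = 0.0644). In HT mice it passed in limma without any one of 5 libraries (adjusted p down to 0.0225). With a term for Gm10221 reads the fluoxetine difference was 0.44 with an adjusted p of 0.0538, and without the libraries that hold them 0.43 with an adjusted p of 0.0664. The fluoxetine difference was 0.78 ± 0.15 in WT mice and 0.17 ± 0.14 in HT mice. The test of that gap gave -0.60 ± 0.21 with an unadjusted p of 0.005, which did not pass over all genes (adjusted p = 0.792).

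Zbtb16 (ENSMUSG00000066687, GRCm38 chromosome 9:48654297-48836222, minus strand) encodes a zinc finger transcription factor also known as PLZF. Vehicle mice ran from 807 to 1191 normalized reads with a median of 979. Fluoxetine mice ran from 880 to 2046 with a median of 1274, and 15 of 20 lay above the highest vehicle mouse. Lithium mice ran from 678 to 1802 with a median of 1244, so that they spread to both sides of the vehicle range. Zbtb16 rose by 32.7% under fluoxetine (0.41 ± 0.09, adjusted p = 0.00114; 18 of 20 mice) and by 22.8% under lithium (0.30 ± 0.09, adjusted p = 0.00894; 15 of 19 mice). The fluoxetine differences were 0.42 ± 0.12 in WT mice (adjusted p = 0.0717) and 0.40 ± 0.12 in HT mice (adjusted p = 0.0469), and the difference between them was -0.02 with a 95% interval of -0.36 to 0.32. In WT mice Zbtb16 passed with a term for Gm10221 reads (0.49, adjusted p = 0.0429), without the libraries that hold them (0.51, adjusted p = 0.00598), in edgeR (0.44, adjusted p = 0.0488), in DESeq2 (0.44, adjusted p = 0.0216) and with the olfactory bulb covariate (0.43, adjusted p = 0.0381). In HT mice it did not pass without the libraries that hold Gm10221 reads (0.40, adjusted p = 0.136), a fit that keeps only treated males. With the olfactory bulb covariate it did not pass in HT mice either (0.37, adjusted p = 0.0547). The HT fluoxetine call was lost without any one of 20 libraries (adjusted p up to 0.101): HT fluoxetine females 1 to 4 and males 1, 2, 4 and 5, HT vehicle females 1, 3, 4 and 5 and males 1, 4 and 5, WT lithium female 2 and male 4, and WT vehicle female 5 and males 1 and 2. Under lithium Zbtb16 did not pass within HT mice (0.27 in edgeR, adjusted p = 0.126). Of the 9 HT lithium mice, 6 lay above the vehicle mean of their sex and 3 below the lowest HT vehicle mouse. The lithium difference in WT mice (0.38 ± 0.12, adjusted p = 0.0455) lost its call without any one of 15 libraries (adjusted p up to 0.104): WT lithium females 2 to 5 and males 1, 3, 4 and 5, and WT vehicle females 1, 3, 4 and 5 and males 1, 2 and 4.

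Mertk (ENSMUSG00000014361, GRCm38 chromosome 2:128698956-128802894, plus strand) encodes a receptor tyrosine kinase with which astrocytes and microglia engulf cell debris and synapses. It ran from 993 to 1440 normalized reads under vehicle (median 1260), from 1292 to 1862 under fluoxetine (median 1524) and from 1031 to 1671 under lithium (median 1406). In WT mice the fluoxetine values (1420 to 1605) did not overlap the vehicle values (993 to 1380). In that comparison 1.38% of all genes passed the test, which is another measure. How many of all genes had ranges apart was not counted. Over both genotypes Mertk rose by 19.3% under fluoxetine (0.25 ± 0.04, adjusted p = 1.71e-05; 19 of 20 mice), and by 0.31 with a term for Gm10221 reads (adjusted p = 0.00015). Under lithium its log2 difference was 0.09 ± 0.04 (adjusted p = 0.0872), made up of 0.23 ± 0.06 in WT mice (adjusted p = 0.0104) and -0.04 ± 0.06 in HT mice. Over both genotypes it was 0.23 ± 0.05 in females alone (adjusted p = 0.0091) and -0.04 ± 0.06 in males alone (adjusted p = 0.74). The difference between the sexes had an unadjusted p of 0.00213 and did not pass over all genes. With the olfactory bulb markers as a covariate the lithium difference over both genotypes passed (0.11 ± 0.04, adjusted p = 0.0202). The fluoxetine difference over both genotypes was 0.24 ± 0.04 in that fit (adjusted p = 2.26e-06). Without that covariate, the gap between genotypes in the lithium difference was -0.26 ± 0.08 with an unadjusted p of 0.00252. It did not pass over all genes (adjusted p = 0.559). Summed microglial markers (6 genes) ran from 7889.8 to 9943 under vehicle, from 6356 to 11768 under fluoxetine and from 7891 to 10226 under lithium, and 0 of 6 microglial and 0 of 6 astrocyte markers passed under fluoxetine, where 6.15% of all genes did.

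Tsc22d3 (ENSMUSG00000031431, GRCm38 chromosome X:140539528-140600659, minus strand) encodes the glucocorticoid-induced leucine zipper protein GILZ, a mediator of the anti-inflammatory action of glucocorticoids. It ran from 1414 to 1903 normalized reads under vehicle (median 1635), from 1156 to 2371 under fluoxetine (median 1714) and from 1502 to 2241 under lithium (median 1821). Fluoxetine mice spread to both sides of the vehicle range, with 3 above and 3 below it, and the log2 difference was 0.02 ± 0.05 (adjusted p = 0.88). Lithium raised it by 11.8% (0.16 ± 0.06, adjusted p = 0.0265; 15 of 19 mice). Within WT mice the lithium rise did not pass (0.16 in edgeR, adjusted p = 0.227), nor within HT mice (0.17 in edgeR, adjusted p = 0.138). In females alone the lithium difference was 0.32 ± 0.08 (adjusted p = 0.0157) and in males alone 0.00 ± 0.07 (adjusted p = 0.979). The difference between the sexes was 0.31 ± 0.11, with an unadjusted p of 0.00643 and an adjusted p of 1.0.

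Ddit4 (ENSMUSG00000020108, GRCm38 chromosome 10:59949669-59951834, minus strand), also called Redd1, encodes an inhibitor of the growth kinase complex mTORC1 that is induced by glucocorticoids, hypoxia and energy stress. WT vehicle females stood at 1164, 1029, 1353, 1146 and 1337 normalized reads, and WT vehicle males at 1226, 1303, 1363 and 1197. HT vehicle females stood at 1150, 1354, 1523, 1279 and 1345, and HT vehicle males at 1208, 1363, 1267, 1313 and 1374. The lowest of these vehicle mice, at 1029, was a WT female. Under fluoxetine WT females stood at 1094, 939, 1274, 879 and 1157 and WT males at 747, 821, 924, 896 and 1236. HT fluoxetine females stood at 692, 753, 894, 878 and 959 and HT males at 692, 813, 1243, 791 and 860. Of the 20 fluoxetine mice 15 lay below the lowest vehicle mouse, 9 of them HT.

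Over both genotypes Ddit4 fell by 28.4% under fluoxetine (-0.48 ± 0.06, adjusted p = 1.71e-07; 19 of 20 mice below the vehicle mean of their sex and genotype). It was the change with the smallest p among the 10 genes in that comparison. The fall was -0.64 ± 0.09 in HT mice (adjusted p = 2.04e-06) and -0.33 ± 0.09 in WT mice (adjusted p = 0.0399). The WT call was lost without any one of 13 libraries (adjusted p up to 0.112): WT fluoxetine females 2 and 4 and males 1 to 4, and WT vehicle females 3 to 5 and males 1 to 4. It was also lost with a term for Gm10221 reads (-0.31, adjusted p = 0.139), without the libraries that hold them (-0.33, adjusted p = 0.131) and in edgeR (-0.32, adjusted p = 0.0618). The HT fall kept its call with the term (-0.61, adjusted p = 0.000139) and without those libraries (-0.58, adjusted p = 0.00619). The test of the difference between genotypes gave -0.31 ± 0.12 with an unadjusted p of 0.0168 (adjusted p = 0.792). Under lithium Ddit4 ran from 911 to 1546 (median 1272), across the vehicle range of 1029 to 1523 (median 1303), with a log2 difference of -0.06 ± 0.06 (adjusted p = 0.527, 95% interval -0.19 to 0.07).

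Sgk1 (ENSMUSG00000019970, GRCm38 chromosome 10:21882184-21999903, plus strand) encodes serum- and glucocorticoid-regulated kinase 1, which acts on ion channels and transporters. WT vehicle females stood at 1631, 1565, 1659, 1913 and 1681 normalized reads and WT vehicle males at 1877, 2015, 1693 and 1852. HT vehicle females stood at 1534, 1806, 1905, 1827 and 1663 and HT vehicle males at 1821, 1808, 1949, 1923 and 1790. WT fluoxetine females stood at 1726, 2092, 1433, 1414 and 1960 and WT fluoxetine males at 1714, 1448, 1525, 1633 and 1973. HT fluoxetine females stood at 1494, 1442, 1535, 1389 and 1626 and HT fluoxetine males at 1329, 1357, 1608, 1584 and 1478. HT lithium females stood at 2065, 2505, 1979, 2598 and 2504 and HT lithium males at 1533, 2070, 2112 and 1724. WT lithium females stood at 2091, 2243, 2119, 1968 and 2028 and WT lithium males at 2037, 1975, 2654, 2106 and 1718. The HT lithium females all exceeded the highest HT fluoxetine mouse, whereas 1 HT lithium male lay within the HT fluoxetine values. Among WT mice the fluoxetine and lithium values overlapped.

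Over both genotypes the ranges of Sgk1 were 1534 to 2015 under vehicle (median 1808), 1329 to 2092 under fluoxetine (median 1530) and 1533 to 2654 under lithium (median 2070). It fell by 11.7% under fluoxetine (-0.18 ± 0.05, adjusted p = 0.016; 16 of 20 mice) and rose by 16.3% under lithium (0.22 ± 0.05, adjusted p = 0.000756; 16 of 19 mice). The fluoxetine difference was -0.28 ± 0.07 in HT mice (adjusted p = 0.011) and -0.08 ± 0.07 in WT mice (adjusted p = 0.797), and their difference was -0.20 ± 0.10 (adjusted p = 0.792). A term for Gm10221 reads left the fluoxetine difference over both genotypes at -0.15 with an adjusted p of 0.257, while over the libraries without such reads it was -0.19 with an adjusted p of 0.0322. In HT mice the term gave -0.25 with an adjusted p of 0.14, so that the call was lost, and the libraries without such reads gave -0.32 with an adjusted p of 0.0294. Under lithium it passed in WT mice (0.24 ± 0.07, adjusted p = 0.0281) and in HT mice (0.20 ± 0.07, adjusted p = 0.0407). The HT difference was 0.41 ± 0.09 in females alone (adjusted p = 0.0124) and -0.01 ± 0.10 in males alone (adjusted p = 0.977), the latter smaller than its SE. The WT call was lost without WT lithium female 2 (0.0542) or male 3 (0.087), or WT vehicle female 2 (0.0516) or male 3 (0.0698), and the HT call without any one of 10 libraries (adjusted p up to 0.119): HT lithium females 2, 4 and 5 and males 2 and 3, and HT vehicle females 1 and 5 and males 1, 2 and 5. Over both genotypes the lithium differences were 0.36 ± 0.06 in females alone (adjusted p = 0.000947) and 0.08 ± 0.07 in males alone (adjusted p = 0.557); the difference between the sexes had an unadjusted p of 0.00599 and an adjusted p of 1.0. Summed markers of striatal neurons (6 genes) ran from 2908 to 4914 under vehicle and from 3338 to 14518 under lithium, and 2 of the 6 passed as higher under lithium, as did 2164 of all 17925 genes. Their mean log2 level correlated with that of Sgk1 between mice within groups (r = 0.46, Spearman's rho = 0.44, n = 58, permutation p = 0.00145 and 0.00188, adjusted p = 0.0412 over 110 relations; r = 0.38 without the 2 farthest mice). The part of striatal tissue in the Sgk1 result was not tested.

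Within single arms of drug and genotype, 5 of the 10 genes passed under fluoxetine in WT mice (1.38% of all genes) and 4 in HT mice (3.54% of all genes). Under lithium 5 passed in WT mice (7.47% of all genes) and 3 in HT mice (16.3% of all genes). Mertk in HT fluoxetine mice (0.20 ± 0.06, adjusted p = 0.0323) lost its call without any one of 11 libraries (adjusted p up to 0.0953): HT fluoxetine females 3 and 4 and males 1, 2 and 5, and HT vehicle females 3 to 5 and males 2, 4 and 5. It was also lost with a term for Gm10221 reads (0.26, adjusted p = 0.0599) and without the libraries that hold them (0.19, adjusted p = 0.262). Leaving out single libraries ended no call over both genotypes, and 29 of the 36 calls made on the 10 genes in all comparisons kept their call under every left-out library.

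The drugs were also compared with each other. Ddit4 and Sgk1 were higher under lithium than under fluoxetine in both genotypes. For Ddit4 the log2 difference was 0.33 ± 0.09 in WT mice (adjusted p = 0.00854) and 0.51 ± 0.09 in HT mice (adjusted p = 0.000344). For Sgk1 it was 0.31 ± 0.07 in WT mice (adjusted p = 0.00146) and 0.48 ± 0.07 in HT mice (adjusted p = 1.72e-05). Mertk was lower under lithium in HT mice (-0.24 ± 0.06, adjusted p = 0.00929), and its difference in WT mice was -0.08 ± 0.06 (adjusted p = 0.433). Those were 2 of the 10 genes in WT mice, where 9.55% of all genes passed, and 3 in HT mice, where 6.25% did. Hif3a in WT mice missed the threshold at -0.42 ± 0.14 (adjusted p = 0.0517). It passed in edgeR (-0.48, adjusted p = 0.024), in DESeq2 (-0.48, adjusted p = 0.0207), with the stricter filter (adjusted p = 0.0458), with quantile normalization (adjusted p = 0.0373), with the olfactory bulb covariate (adjusted p = 0.0225) and without any one of 13 libraries (adjusted p down to 0.0174): HT fluoxetine female 5, HT lithium females 1, 4 and 5 and males 1 and 3, HT vehicle female 3, WT fluoxetine female 5 and males 2, 3 and 4, WT lithium male 2 and WT vehicle male 3. With only the groups compared it did not (adjusted p = 0.11). Fkbp5, the gene with the largest lithium rise, did not differ between the drugs beyond the threshold in WT mice (0.07 ± 0.13, adjusted p = 0.803) or HT mice (0.33 ± 0.13, adjusted p = 0.12). All 19 lithium libraries and 8 of the 20 fluoxetine libraries hold Gm10221 reads, so this comparison cannot be told apart from that difference either.

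Genotype moved none of the 10 genes past the threshold. In limma 0 of the 10 passed under vehicle, fluoxetine or lithium (0% of all genes in each), and 0 of 10 passed by edgeR or DESeq2. At an unadjusted p under 0.05 stood 0 of the 10 genes under vehicle, 3 under fluoxetine (Hif3a, Ddit4 and Sgk1, all lower in HT mice) and 1 under lithium (Mertk). Among all genes 814, 1114 and 2006 had such a p in those arms, and DESeq2 called 3, 2 and 16 genes where edgeR called 0. Between genotypes under vehicle the 95% interval of Nr3c1 reached from -0.23 to 0.04 on the log2 scale, that of Fkbp5 from -0.15 to 0.37 and that of Ddit4 from -0.09 to 0.27. The tests of drug by genotype called 0 of the 10 genes for fluoxetine (4 at an unadjusted p under 0.05) and 0 for lithium (2 at such a p), again 0 with edgeR and DESeq2. Of all genes 0% passed in each (1128 and 1196 at an unadjusted p under 0.05; 2 and 4 called by DESeq2, 0 by edgeR).

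Females and males did not differ beyond the threshold in any of the 10 genes either (0 of 10 by limma, edgeR and DESeq2, and 0 at an unadjusted p under 0.05; 0.301% of all genes passed). The fluoxetine effect differed by sex in 0 of the 10 genes (0 at an unadjusted p under 0.05; 0.0335% of all genes passed). The lithium effect differed by sex in 0 of the 10 (0% of all genes; 454 of them at an unadjusted p under 0.05, and 3 called by DESeq2, 0 by edgeR). Mertk, Sgk1 and Tsc22d3 had an unadjusted p under 0.05 in that test, all with a larger lithium difference in females.

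The receptors are held ready by chaperones and act through cofactors. Of 13 chaperones and cofactors, among them Hsp90aa1, Hsp90ab1, Fkbp4 and the coactivators Ncoa1 to Ncoa3, 1 rose under fluoxetine over both genotypes, where 6.15% of all genes passed: Bag1, a co-chaperone that lowers receptor activity (0.11 ± 0.03, adjusted p = 0.0476). Under lithium, where 24.3% of all genes passed, 2 rose and 1 fell, a share near that background: Bag1 (0.14 ± 0.04, adjusted p = 0.0032), Ptges3, the p23 co-chaperone (0.07 ± 0.02, adjusted p = 0.017), and Ncoa3 (-0.11 ± 0.03, adjusted p = 0.0142). The list's median log2 difference was 0.02 under fluoxetine and 0.0020 under lithium.

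Of 8 genes of hormone handling and the stress axis 7 were tested, Hsd11b2 having been filtered out. Under fluoxetine 0 of the 7 passed (6.15% of all genes). Under lithium 2 of the 7 rose, a share near the 24.3% of all genes that passed: Crh, which encodes corticotropin-releasing hormone (0.27 ± 0.06, adjusted p = 0.000953) and Crhbp, its binding protein (0.25 ± 0.06, adjusted p = 0.000656). Hsd11b1, which regenerates active hormone inside cells, was among those that did not pass.

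Of 21 further genes known to be induced by glucocorticoids, 2 rose and 4 fell under fluoxetine over both genotypes (6.15% of all genes passed), with a median of -0.0098. Per1, a clock gene (-0.55 ± 0.04, adjusted p = 5.17e-14), Dusp1, a phosphatase of MAP kinases (-0.62 ± 0.10, adjusted p = 1.23e-05), and Errfi1, an inhibitor of the EGF receptor (-0.20 ± 0.03, adjusted p = 3.16e-05), had the smallest p. Tiparp also fell (-0.38 ± 0.08), while the connexin gene Gjb6 (0.23 ± 0.06) and the transcription factor gene Cebpb (0.27 ± 0.07) rose. Under lithium 5 of the 21 rose and 0 fell, with a median of 0.10; the share that passed was near the 24.3% of all genes. They were Cebpb (0.84 ± 0.08, adjusted p = 6.15e-12), its relative Cebpd (0.60 ± 0.10), Angptl4, an inhibitor of lipoprotein lipase (0.55 ± 0.14), and the Krüppel-like factor genes Klf9 (0.21 ± 0.03, adjusted p = 6.34e-06) and Klf15 (0.20 ± 0.05). Per1 and Dusp1 had lithium differences of -0.05 and 0.01. The plot of the 21 genes shows the fluoxetine falls on the side where lithium has no filled point.

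**Figure D3:**
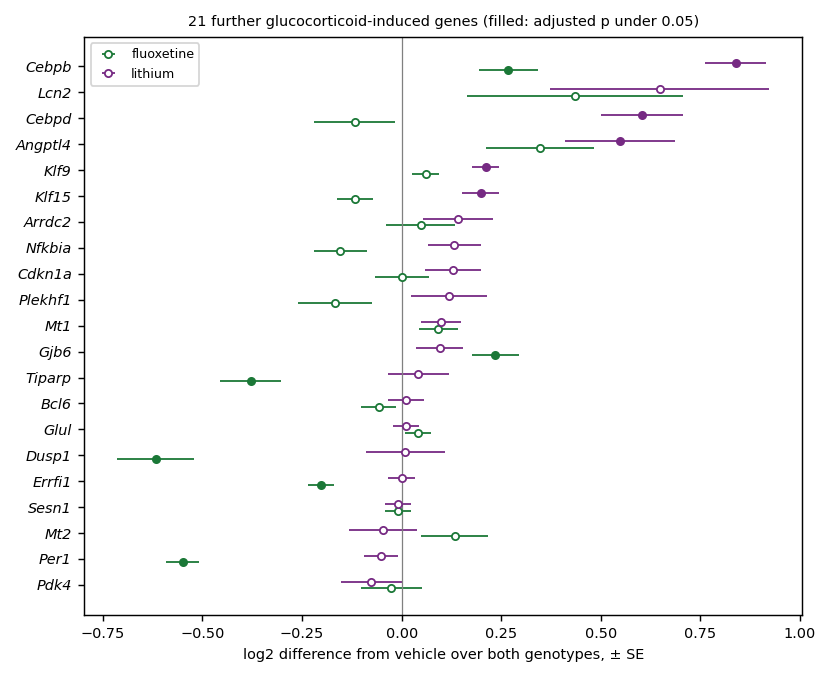
Log2 difference from vehicle over both genotypes (x axis, ± SE) for 21 further glucocorticoid-induced genes (y axis) under fluoxetine and lithium; filled points passed at an adjusted p under 0.05. Cebpb passed under each drug (0.27 and 0.84), and the genes that fell under fluoxetine, such as Dusp1 (-0.62) and Per1 (-0.55), did not pass under lithium.

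Several of the genes that fell under fluoxetine are also induced by neuronal activity. Of 6 activity-induced genes, 5 fell under fluoxetine over both genotypes (6.15% of all genes passed): Arc (-1.55 ± 0.17, adjusted p = 4.84e-09), Nr4a1 (-0.80 ± 0.09, adjusted p = 1.61e-08), Junb (-0.82 ± 0.10, adjusted p = 1e-07), Fos (-0.94 ± 0.15) and Egr1 (-0.43 ± 0.12). Arc ran from 1354 to 6148 normalized reads under vehicle, from 586 to 2772 under fluoxetine and from 1055 to 4589 under lithium. Under lithium 0 of the 6 passed (24.3% of all genes). Their part in the falls of Ddit4 and Sgk1 was not tested.

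Between mice of the same group, some of the genes moved together. Deviations from the mean of the 12 groups were correlated for all 45 pairs of the 10 genes (58 mice, permutation within groups, adjustment over the 45 pairs), and 10 pairs passed, 5 positive and 5 negative. Fkbp5, Sult1a1 and Hif3a formed a positive trio, and Nr3c1 was negatively related to each of them. For Fkbp5 and Sult1a1 r was 0.75 and rho 0.74 (p = 1e-05 for each, the smallest the permutations can give; adjusted p = 0.00015 and 0.000225). For Fkbp5 and Hif3a r was 0.69 and rho 0.62 (permutation p = 1e-05 and 2e-05, adjusted p = 0.00015 and 0.0003). For Sult1a1 and Hif3a r was 0.62 and rho 0.51 (permutation p = 4e-05 and 0.00045, adjusted p = 0.00045 and 0.00382). Without the 2 mice farthest from the median of the first gene, r was 0.72, 0.63 and 0.57 for these pairs.

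Nr3c1 was lower in mice in which those targets were higher. Its r was -0.66 with Hif3a (rho = -0.70, permutation p = 1e-05 for each, adjusted p = 0.00015 and 0.000225), -0.60 with Fkbp5 (rho = -0.56, permutation p = 7e-05 and 0.00015, adjusted p = 0.000525 and 0.00169) and -0.51 with Sult1a1 (rho = -0.48, permutation p = 7e-05 and 0.00051, adjusted p = 0.000525 and 0.00382). Without the 2 farthest mice these were -0.67, -0.51 and -0.48. The relation of Nr3c1 with Hif3a was present in each drug arm, at -0.80 in vehicle, -0.67 in fluoxetine and -0.54 in lithium mice. That of Fkbp5 with Sult1a1 was 0.89, 0.71 and 0.70 in the same order. Nr3c1 with Sult1a1 was -0.72 in vehicle, -0.62 in fluoxetine and -0.23 in lithium mice. In the 31 libraries without Gm10221 reads the 3 negative relations were -0.67, -0.59 and -0.65 for Hif3a, Fkbp5 and Sult1a1, and in the 27 with them -0.62, -0.56 and -0.33. Library totals of normalized reads ran from 27350000 to 30930000. The mouse with the lowest total was also lowest in Nr3c1 among HT fluoxetine males, HT vehicle females and WT fluoxetine females and males. So it was among WT lithium females and WT vehicle males, but not in the remaining groups. The part of library totals in these relations was not tested.

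**Figure D4:**
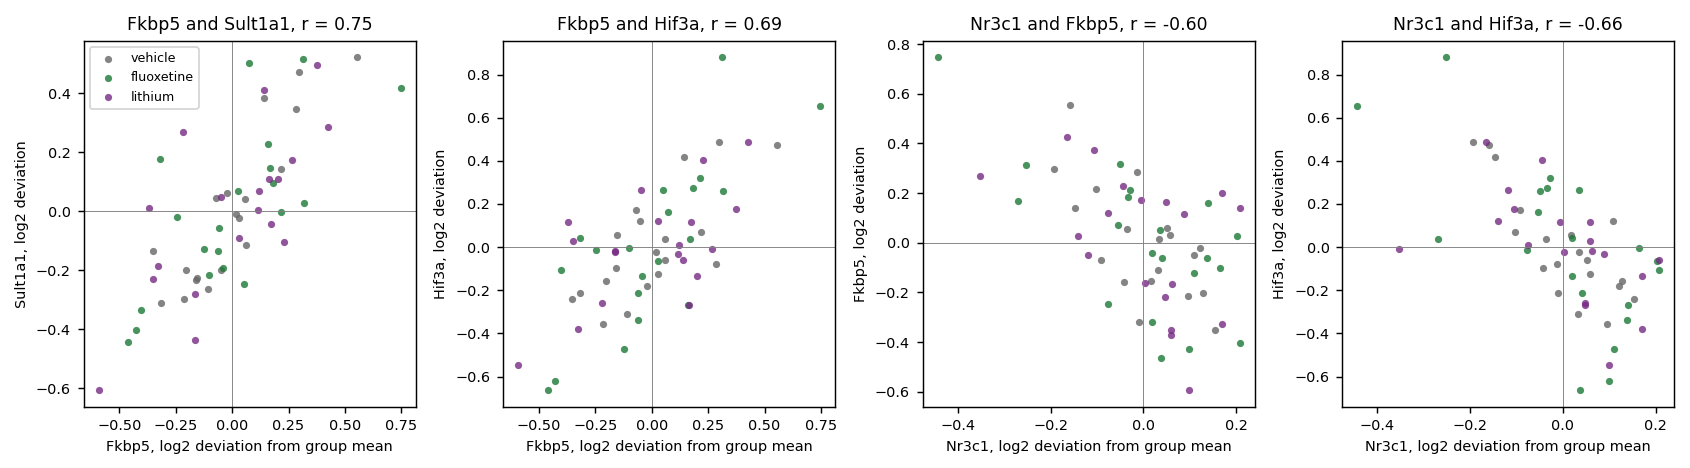
Deviation of single mice from the mean of their group (log2 scale on both axes) for 4 pairs of genes, 58 mice, coloured by drug. Mice with high Fkbp5 had high Sult1a1 and Hif3a (r = 0.75 and 0.69), and mice with low Nr3c1 had high Fkbp5 and Hif3a (r = -0.60 and -0.66).

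Zbtb16 took part in 3 of the other pairs, with r of 0.49 with Mertk (rho = 0.43, permutation p = 0.00195 and 0.00424, adjusted p = 0.0125 and 0.0273), -0.45 with Ddit4 (rho = -0.36, permutation p = 0.00256 and 0.0119, adjusted p = 0.0144 and 0.0596) and 0.38 with Tsc22d3 (rho = 0.37, permutation p = 0.00536 and 0.0111, adjusted p = 0.0268 and 0.0596). The last was Nr3c1 with Ddit4 at -0.40 (rho = -0.27, permutation p = 0.00667 and 0.0579, adjusted p = 0.03 and 0.14). Without the 2 farthest mice these were 0.47, -0.40, 0.29 and -0.36. Leaving out single libraries could end the calls of Ddit4 with Zbtb16 (adjusted p up to 0.0589), Tsc22d3 with Zbtb16 (up to 0.108) and Nr3c1 with Ddit4 (up to 0.116), and ended none of the other 7. Nr3c2 and Sgk1 passed in no pair of this test.

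**Figure D5:**
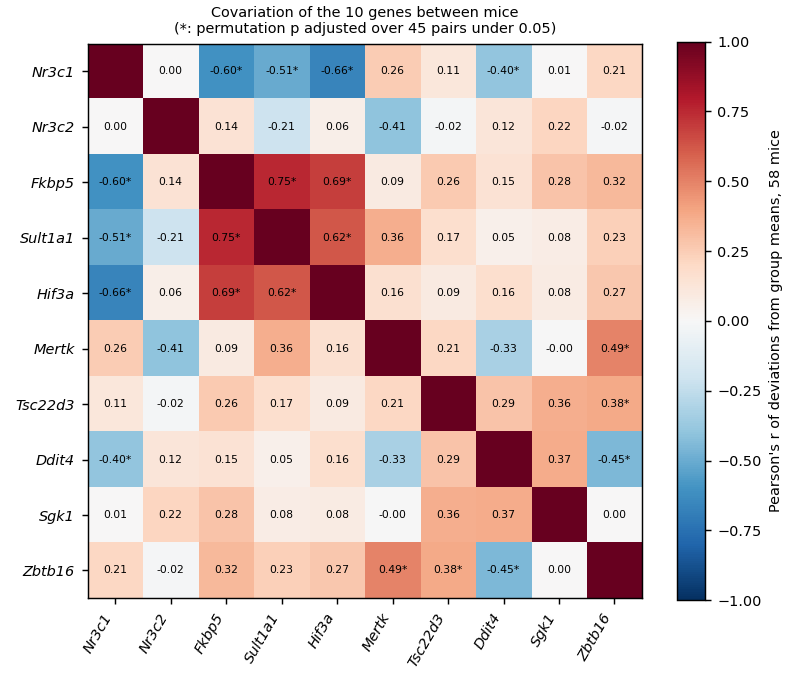
Pearson's r between the deviations of the 10 genes from their group means (58 mice; colour and number), with an asterisk where the permutation p adjusted over the 45 pairs was under 0.05. The block of Fkbp5, Sult1a1 and Hif3a (0.62 to 0.75) faces a negative row of Nr3c1 (-0.51 to -0.66).

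Markers of neighbouring tissue moved with some of these genes. Within groups, the mean log2 level of the olfactory bulb markers correlated with Nr3c1 (r = -0.59, rho = -0.60, permutation p = 3e-05 and 2e-05, adjusted p = 0.0033 over 110 relations of 11 marker lists and 10 genes), Mertk (r = -0.49, rho = -0.44, permutation p = 0.00015 and 0.00103, adjusted p = 0.00825) and Hif3a (r = 0.40, rho = 0.45, permutation p = 0.00254 and 0.00079, adjusted p = 0.0475). Without the 2 farthest mice r was -0.59, -0.48 and 0.37. With the mean of these markers removed from each gene, Nr3c1 kept an r of -0.57 with Hif3a, -0.62 with Fkbp5 and -0.52 with Sult1a1, and the trio kept 0.75, 0.69 and 0.61. With the mean of the neuronal markers removed, the same 6 relations stood at -0.67, -0.66, -0.51, 0.77, 0.71 and 0.62. Other pairs changed their call. With olfactory bulb markers removed Mertk with Zbtb16 (0.43, permutation p adjusted to 0.0645) and Nr3c1 with Ddit4 (-0.28, 0.121) were lost. Gained were Ddit4 with Sgk1 (0.48, permutation p adjusted to 0.0115), Nr3c2 with Mertk (-0.47, 0.0195) and 4 pairs of Fkbp5, Sult1a1 or Hif3a with Mertk or Zbtb16 (0.39 to 0.51). With neuronal markers removed Tsc22d3 with Zbtb16 was lost (0.30, permutation p adjusted to 0.123) and Ddit4 with Sgk1 gained (0.40, 0.0341). Mertk also correlated with endothelial markers (r = 0.48, rho = 0.42, permutation p = 0.0015 and 0.00344, adjusted p = 0.0412; 0.40 without the 2 farthest mice) and with markers of oligodendrocyte precursors (r = 0.43, rho = 0.42, permutation p = 0.00259 and 0.00336, adjusted p = 0.0475; 0.44 without them).

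Among 11819 genes with a mean of at least 100 normalized reads, the gene whose deviations were most like those of Fkbp5 was Sult1a1 (r = 0.75), followed by Klhl40 and Map3k6 (both 0.72). Map3k6, a stress kinase gene, was also among the 3 nearest of Sult1a1 (0.71) and Hif3a (0.72), the latter led by Trp53inp1 and Il1r1 (both 0.72). The nearest of Nr3c1 were Uhmk1, Kcnt2 and Reps2, all at 0.91. For Ddit4 they were Tob2 (0.73), Irf2bp2 (0.70) and Gadd45g (0.69), and for Zbtb16 Adcy9 (0.74), Zmynd8 (0.74) and Rapgef2 (0.68). Sgk1 lay nearest to Rhob (0.64), Mertk to Kirrel2 (0.68), Tsc22d3 to Pdxk (0.67) and Nr3c2 to Brinp3 (0.65). These correlations over 58 mice are descriptions of likeness and were not tested.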

How the data were processed

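RNA of the prefrontal cortex was sequenced from stranded libraries of polyadenylated RNA, per the labels' protocols. The table deposited by the authors holds normalized counts, a signal in reads scaled by each library's size factor, for 18088 Ensembl genes; 18077 were found in GENCODE M21 (GRCm38). Salmon 0.11.2, R 3.6.0, DESeq2 1.19.11 and GRCm38 are named per the submitters' processing notes. Values are whole multiples of a step between 0.788 and 1.30 per library, so whole reads were recovered (100% whole within 0.01); in 11 libraries the step lies too near 1 for this check to tell reads from rounded values. Totals were 23270000 to 37800000 reads. This scaling takes most genes as unchanged.

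The filter kept 17925 genes, those at 10 or more in 4 or more libraries. limma 3.58.1 with trend was fitted to log2(value + 1) for all 58 libraries in 12 groups of genotype, drug and sex, weighing females and males equally, with two-sided Benjamini-Hochberg adjustment over all genes at 0.05. Where no SD is named, ± gives the SE of a log2 difference, and such differences understate the change of low genes. The drug effect over both genotypes is the mean of the WT and HT effects. Sex tests take female minus male, genotype tests HT minus WT. The steps were tested on simulated data. edgeR 4.0.16 and DESeq2 1.42.0 on the recovered reads, pseudocounts of 0.1 and 5, no filter or a filter of 50 in 10 libraries, quantile normalization, only the groups compared, each sex alone, the replicate number as a block, terms for Gm10221 reads, and each library left out were alternatives. A covariate from olfactory bulb markers, and the removal of neuronal or olfactory bulb markers from the pairs, were chosen after seeing the data.

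Pairs were tested by 100000 permutations within groups (20000 with a library left out), two-sided. The 10 genes and all lists were chosen with earlier results of these data known. All 10 genes are named in each comparison; of other lists, up to 3 with the smallest p that passed are named, and others named with them were chosen after their values were seen.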

Additional observations from a re-analysis of the deposited data

Results flagged for a closer look

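Among the 120 sets of 4 or 5 mice checked (10 genes in 12 groups), 3 held a mouse far from the others, where chance alone flags about 1 in 20. Fkbp5 stood at 2208 normalized reads in WT fluoxetine female 3, the other 4 females of that group lying between 994 and 1341. Nr3c2 stood at 930 in HT vehicle male 1, beside 847 to 857 in the other males of the group. Nr3c2 stood at 1091 in WT lithium male 1, beside 859 to 910 in the other males.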

How the results depend on the processing

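Fewer of the 10 genes passed in several fits of 1 sex. With females only, the counts were 3 under fluoxetine in WT and 1 in HT mice, 2 under lithium in WT mice, and 0 for lithium against fluoxetine in WT mice. With males only, they were 0 under fluoxetine in WT, 0 in HT and 2 over both, 0 under lithium in WT, 0 in HT and 1 over both, and 1 for lithium against fluoxetine in HT mice. Sgk1 under lithium in HT mice stood at -0.0103 ± 0.10 in males only (adjusted p = 0.977). With a term for Gm10221 reads, 2 genes passed under fluoxetine in HT mice and 4 over both genotypes; without the libraries that hold them, 2 passed in HT mice. With the olfactory bulb covariate 6 passed under fluoxetine in WT mice and 8 under lithium over both genotypes. The Gm10221 fits were not run for the fluoxetine effect by sex, since sex enters them as an additive term. Over all genes, fluoxetine calls fell from 248, 635 and 1103 (WT, HT, both) to 129, 184 and 386 with the term and to 140, 96 and 447 without those libraries. They were 43, 237 and 429 in females and 10, 22 and 138 in males. Lithium calls fell from 1339, 2919 and 4351 to 130, 709 and 1466 in females and 259, 597 and 1849 in males. Lithium against fluoxetine fell from 1712 and 1121 (WT, HT) to 341 and 33 in females, 778 and 314 in males, and 1158 and 377 with only those groups fitted; fluoxetine in WT mice then gave 158. The genotype comparison under lithium, with 0 calls, gave 8 with the stricter filter and 2 in females. Sex called 54 genes, 83 with DESeq2 or the olfactory bulb covariate, and 36 and 12 with the Gm10221 fits; fluoxetine by sex called 6, and 3 with the stricter filter, 4 with edgeR. With single libraries left out, 4 to 6, 2 to 4 and 7 to 7 of the 10 genes passed under fluoxetine (WT, HT, both), 3 to 5, 1 to 4 and 7 to 8 under lithium, 2 to 3 and 3 to 4 for lithium against fluoxetine (WT, HT), and 0 to 0 in the genotype, sex and interaction tests. Of the pairs 8 to 12 passed. With the replicate block, 34 of the 36 calls held; Zbtb16 was lost under fluoxetine in HT mice (adjusted p = 0.0518) and under lithium in WT mice (0.0559). The numbers did not pair the mice: libraries sharing a number had a mean r of deviations of -0.00017, and 9 of 58 correlated best with their own number. DESeq2 kept all 36 calls and edgeR 35, losing Ddit4 under fluoxetine in WT mice (adjusted p = 0.0618). The causes of these changes were not tested.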
